A study of Mus musculus with 17 samples.

Results

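The genes described here are 41 nuclear speckle and SR splicing factor genes of the mouse, of 26131 genes counted in single nuclei of the brain. They were chosen by name as a functional group, and all 41 were present in the deposited count matrix. By role they comprise 13 SR proteins, 11 speckle scaffolds and SR-related proteins, 10 factors of the U1 and U2 small nuclear ribonucleoproteins, 5 kinases and 2 mRNA export factors. Their levels were compared between cell types and between treatments that target Malat1, a long noncoding RNA held in the same nuclear bodies.

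Nuclear speckles are bodies in the nucleus that store and supply splicing factors near active genes. SR proteins carry domains rich in arginine and serine, bind exons and recruit the U1 and U2 particles that mark the splice sites. CLK kinases phosphorylate SR proteins and release them from speckles, and Son and Srrm2 form the core on which a speckle assembles. Malat1 RNA is enriched in speckles and binds SR proteins, but mice without it are viable and still form speckles.

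All 17 animals were female mice of 2.3 months, homozygous for a knock-in of the human transferrin receptor (TfR), and the posterior brain was taken 72 hours after the last of 4 doses given intravenously over 24 days. Saline was given to 4 mice, whose labels carry a dose of 50 mg per kg as well. The antisense oligonucleotide alone, called Malat1 ASO, was given to 4 mice at a labelled 2 mg per kg. The oligonucleotide coupled to an antibody to TfR (anti-TfR:Malat1) was given to 6 mice and the one coupled to a transport vehicle that binds TfR (OTV:Malat1) to 3, each at a labelled 50 mg per kg.

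The matrix held 284074 nuclei with 1099241149 unique molecular identifiers (UMIs), and each animal was 1 sample. The deposited labels gave 193268 neurons, 75282 oligodendrocytes, 8444 microglia, 4972 astrocytes, 1226 vascular cells and 657 perivascular macrophages. A further 225 nuclei, 1 to 53 per animal, were labelled glia and were not tested. Levels are given as CPM, the UMIs of a gene per 1000000 UMIs other than Malat1, summed over the nuclei of a label in an animal. UMIs summed per animal ran from 4120611 to 9483846 in oligodendrocytes and from 48785604 to 72332862 in neurons. Nuclei labelled oligodendrocytes held all 9 oligodendrocyte markers, at a sum of 15936 to 18985 CPM, and also all 10 neuronal markers, at 1020 to 2030 CPM. Nuclei labelled neurons included 7336 of a cluster led by markers of oligodendrocyte precursors and 5818 and 436 of 2 clusters led by oligodendrocyte markers, and 1284 of a cluster in which microglial markers led. Nuclei labelled oligodendrocytes included 430 of the precursor cluster, with precursor markers at 11922 CPM and oligodendrocyte markers at 548. The smaller labels held such nuclei too: 120 labelled astrocytes lay in a cluster where microglial markers led them, and 352 labelled microglia and 53 labelled perivascular macrophages lay in a cluster where oligodendrocyte markers did. With labels joined to clusters, which leaves out nuclei whose cluster goes with another label, no treatment contrast called a member. The authors' doublet calls covered 47758 nuclei (16.8%), which were kept, and 20326 nuclei (7.16%) had a barcode sequence that also occurred in another animal. 

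Of the 41 genes, 38 had a start site in the RefSeq promoter table (build GRCm38.p6). Read over the 250 bases before the start, their median was 20.5 CpG dinucleotides, against 6 over 27025 genes, and 33 of 38 (86.8%) had 15 or more, against 27.3% of all genes. The windows of 3 genes that the results turn on are shown, for the neuronal factors Srrm3 and Srrm4 and the SR protein Srsf6. Capitals mark 3 promoter motifs on either strand. The first is TATAAA. The second is GGGCGG, which reads CCGCCC on the other strand. The third is CCAAT, which reads ATTGG there.
Srrm3: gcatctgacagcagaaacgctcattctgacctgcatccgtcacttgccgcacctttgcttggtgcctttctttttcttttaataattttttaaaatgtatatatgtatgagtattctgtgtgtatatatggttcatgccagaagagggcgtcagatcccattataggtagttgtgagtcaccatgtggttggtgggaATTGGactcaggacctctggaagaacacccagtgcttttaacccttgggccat
Srrm4: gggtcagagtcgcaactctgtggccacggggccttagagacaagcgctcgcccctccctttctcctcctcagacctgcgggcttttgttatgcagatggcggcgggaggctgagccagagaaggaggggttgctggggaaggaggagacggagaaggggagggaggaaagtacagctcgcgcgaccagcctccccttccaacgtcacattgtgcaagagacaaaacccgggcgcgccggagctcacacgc
Srsf6: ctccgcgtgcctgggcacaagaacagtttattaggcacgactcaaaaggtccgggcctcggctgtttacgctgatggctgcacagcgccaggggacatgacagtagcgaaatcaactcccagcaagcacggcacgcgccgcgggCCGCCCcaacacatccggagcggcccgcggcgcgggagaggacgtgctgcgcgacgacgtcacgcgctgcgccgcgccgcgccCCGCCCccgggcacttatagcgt
These lie at chr5:135817856-135818105 on the plus strand (Srrm3), chr5:116591818-116592067 on the minus strand (Srrm4) and chr2:162931258-162931507 on the plus strand (Srsf6), and no GENCODE vM21 exon overlaps them. The Srrm3 and Srrm4 windows lie inside the span that RefSeq gives those genes, which begins upstream of them. The Srrm3 window holds 4 CpG dinucleotides, that of Srrm4 17 and that of Srsf6 35. A gene was counted if the window of any of its start sites held the motif. Over the members, GGGCGG was found in 24 of 38 genes (63.2%, against 35.4% of all genes), CCAAT in 14 (36.8%, against 37.5%) and TATAAA in 4 (10.5%, against 14.3%). A match describes the letters only, and no binding was measured.

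Most of the 41 genes made up a larger share of the RNA of oligodendrocytes than of neurons. Within animals, 28 were higher in oligodendrocytes in all 17 mice and 6 were lower in all 17. The median difference over the 41, oligodendrocytes minus neurons, was 0.30 on the log2 scale, against -0.08 over 20323 genes. Neurons were the label of lowest median level for 28 of the 41 genes. Microglia were highest for 13, perivascular macrophages for 12, vascular cells for 5, oligodendrocytes and astrocytes for 4 each, and neurons for 3. Perivascular macrophages had only 21209 to 79597 UMIs per animal and vascular cells 43368 to 171058. In these 2 labels 22 and 30 of the 41 genes passed the filter on low counts, so ranks of genes at low levels rest on few UMIs there. The labels were made from the expression of all genes, so the differences between labels are given as a description, without a test. In UMIs per nucleus the order was the other way, with a median of 10.9 from the 41 genes in an oligodendrocyte nucleus and 34.2 in a neuronal nucleus, since neuronal nuclei gave 3894 to 6253 UMIs at the median and oligodendrocytes 990 to 1648.

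**Figure D1:**
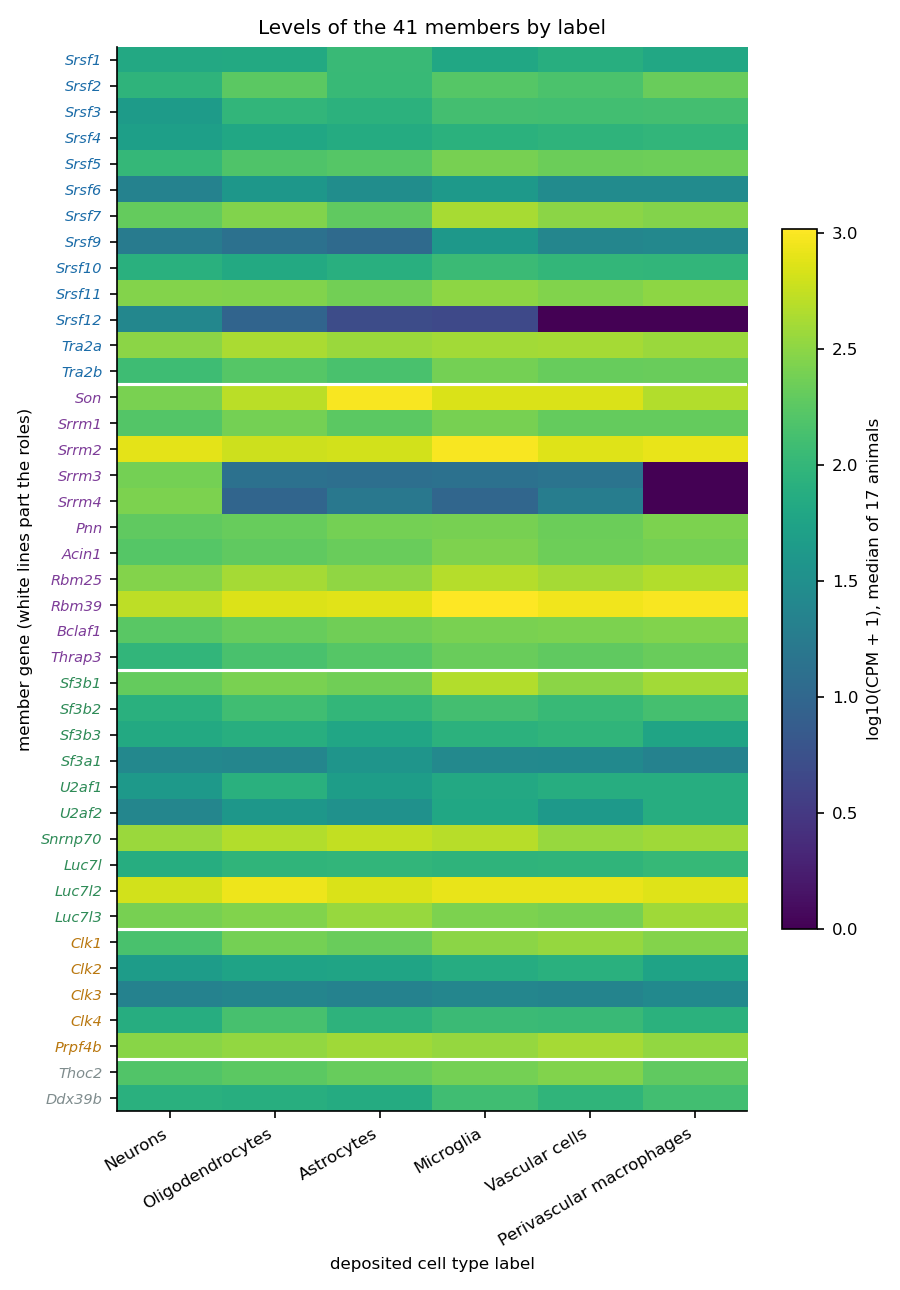
Heat map of the median level over 17 animals, log10 of CPM plus 1, for the 41 genes (vertical axis, ordered by role) in 6 deposited labels (horizontal axis). Srrm3, Srrm4 and Srsf12 are highest in neurons, and most other genes are lowest there.

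Among the SR proteins, 7 of 13 were higher in oligodendrocytes in every animal and 3 were lower. Srsf3, which autoregulates its own splicing and acts in mRNA export, stood at 88.1, 96.6 and 109 CPM in oligodendrocytes (lowest, median and highest of 17 animals) and at 38.9, 44.6 and 52.7 CPM in neurons. The ranges did not overlap, and the ratio of the medians was 2.17. Srsf2, an SR protein also known as SC35, ran from 105 to 224 CPM with a median of 179 in oligodendrocytes and from 58.6 to 134 with a median of 91.3 in neurons. These ranges overlapped across animals, although Srsf2 was higher in oligodendrocytes within each of the 17, by 0.71 to 1.04 log2 units. Srsf6, a splicing activator, had medians of 38.9 and 21.0 CPM. Srsf1, a founding member of the family, was close in both, at 67.4 and 64.7 CPM, with oligodendrocytes higher in 9 of 17 animals. The exceptions in the family were Srsf12, Srsf9 and Srsf10, at median differences of -1.38, -0.48 and -0.29 log2 units.

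Among the speckle scaffolds and SR-related proteins, 8 of 11 were higher in oligodendrocytes in every animal and 3 were lower. Son ran from 413 to 623 CPM with a median of 503 in oligodendrocytes and from 222 to 325 with a median of 257 in neurons, without overlap. Its partner in the speckle core, Srrm2, had the opposite order, with 609 CPM in oligodendrocytes and 778 in neurons, and was lower in oligodendrocytes in all 17 animals by 0.23 to 0.43 log2 units. Astrocytes had the highest Son, with a median of 967 CPM, and microglia the highest Srrm2, with 973 CPM.

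Srrm3 and Srrm4, paralogs that activate neuronal microexons, differed most between the labels. Srrm4 stood at 235, 265 and 278 CPM in neurons (lowest, median, highest) and at 6.09, 8.70 and 12.6 in oligodendrocytes, 30.4-fold apart at the medians. Srrm3 stood at 231, 242 and 250 CPM in neurons and at 7.79, 12.5 and 16.4 in oligodendrocytes, 19.4-fold apart. In perivascular macrophages they rested on 11 and 13 UMIs over all animals, too few to give a level. In oligodendrocytes Srrm3 was at 5.15% of its neuronal level and Srrm4 at 3.29%, below the 5.60% of Meg3, an abundant neuronal RNA, and the 18.2% of Snap25, a synaptic gene. At these shares no expression is read from the Srrm3 and Srrm4 UMIs of oligodendrocytes, and the part of free neuronal RNA in them was not tested. Srsf12 was at 34.9% of its neuronal level, above both.

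The U1 and U2 factors and the kinases followed the larger group. Of 10 such factors 8 were higher in oligodendrocytes in every animal and none was lower in every animal. U2af1, the small subunit that reads the AG of the 3′ splice site, had medians of 80.2 CPM in oligodendrocytes and 40.9 in neurons, and oligodendrocytes had the highest median of the 6 labels. Among the kinases, 4 of 5 were higher in every animal. Clk4 ran from 112 to 162 CPM with a median of 137 in oligodendrocytes and from 67.3 to 85.2 with a median of 74.3 in neurons, without overlap. Clk1 had medians of 242 and 142 CPM. The 2 export factors differed less, with medians of -0.11 and 0.21 log2 units for Ddx39b and Thoc2. With the doublet calls left out, 29 genes were higher and 6 lower in every animal.

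The treatments were compared to see whether these genes changed where Malat1 was lowered. Malat1 itself, in oligodendrocytes, differed from saline by -2.79 log2 units with OTV:Malat1 (adjusted p = 5.3e-07, edgeR quasi-likelihood test with Benjamini-Hochberg adjustment over 14419 genes). The difference was -0.61 with anti-TfR:Malat1 (adjusted p = 1.00) and -0.07 with Malat1 ASO (adjusted p = 1.00). None of the 41 genes passed an adjusted p of 0.05 in oligodendrocytes in any of the 4 contrasts, and all 41 passed the filter on low counts. For OTV:Malat1 against saline the test called 3 of 14419 genes (0.0208%), Malat1, Slc35f2 and Saa3. It called 0% for anti-TfR:Malat1 against saline, 0% for Malat1 ASO against saline, and 0.00694% for OTV:Malat1 against anti-TfR:Malat1, which was Malat1 alone. At an unadjusted p of 0.05, 1 of 41 members passed with OTV:Malat1 (2.55% of all genes), 1 with anti-TfR:Malat1 (1.8%), 0 with Malat1 ASO (0.985%) and 1 between OTV:Malat1 and anti-TfR:Malat1 (2.89%). DESeq2 called 0 members in each contrast as well. The 3 contrasts with saline share the same 4 saline animals.

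The summed level of the 41 genes in oligodendrocytes was 8502 ± 359 CPM with saline (SD, n = 4), 8406 ± 389 with Malat1 ASO (n = 4), 8255 ± 404 with anti-TfR:Malat1 (n = 6) and 8625 ± 227 with OTV:Malat1 (n = 3). The ranges of the 4 groups overlapped. Over the 41 genes the median log2 change against saline was -0.04 with OTV:Malat1 (15 higher, 26 lower), -0.05 with anti-TfR:Malat1 (10 higher, 31 lower) and -0.02 with Malat1 ASO (13 higher, 28 lower). Over all genes tested, 52.3% were higher with OTV:Malat1, 49% with anti-TfR:Malat1 and 49% with Malat1 ASO, with medians of 0.01, -0.0032 and -0.0028.

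**Figure D2:**
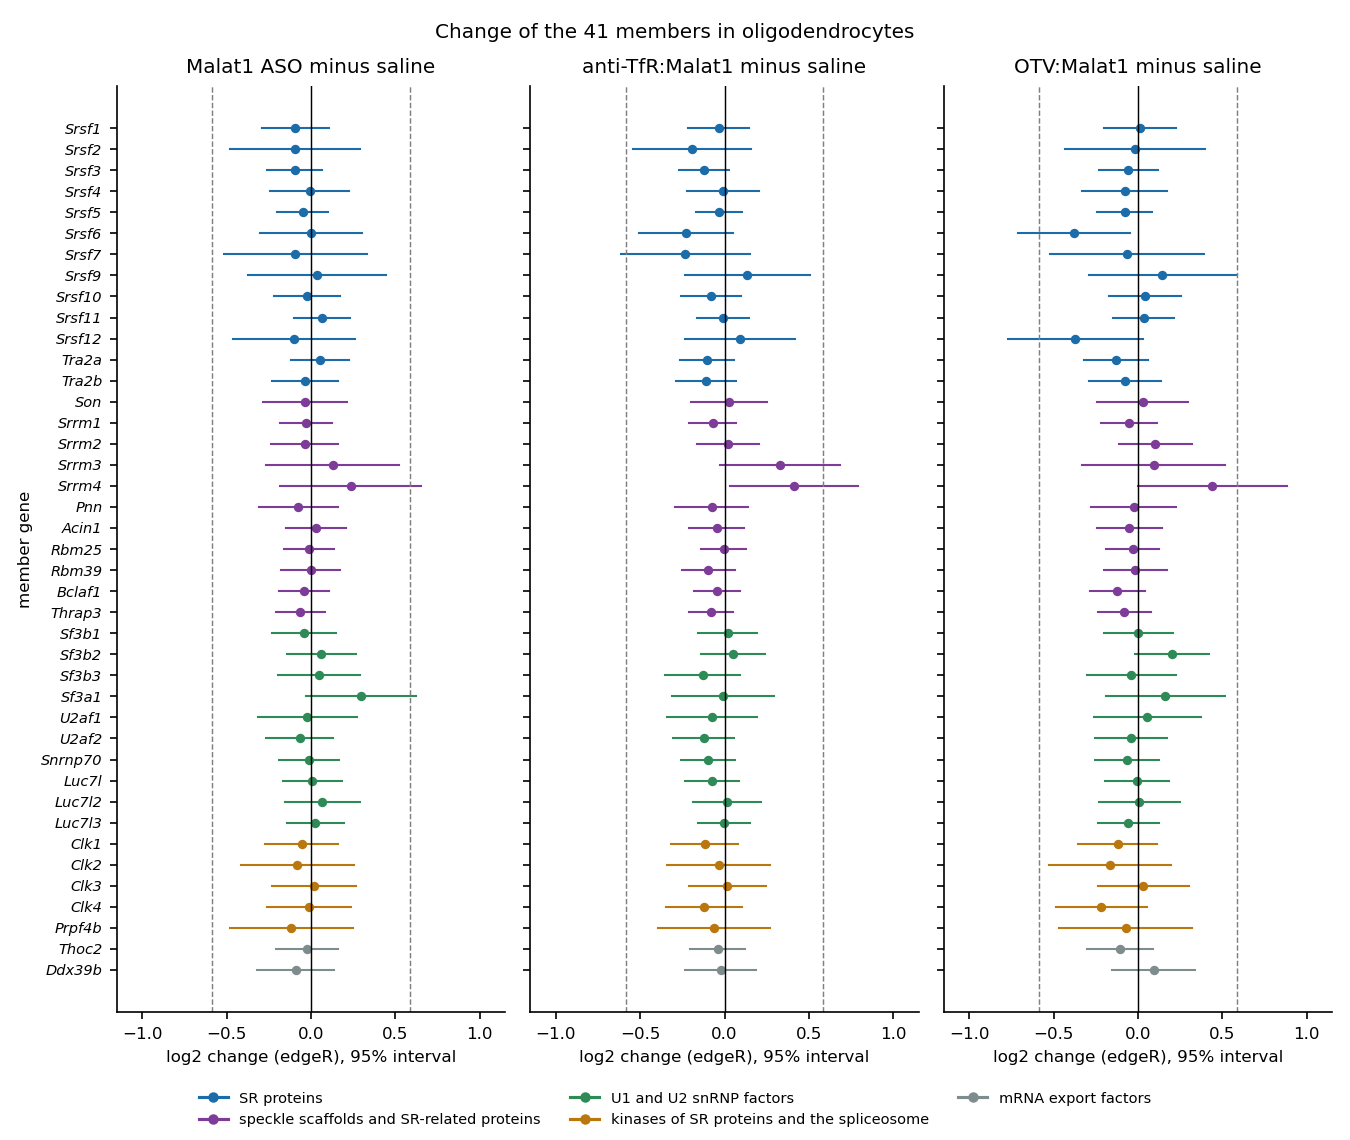
Log2 change in oligodendrocytes for each of the 41 genes (vertical axis) for Malat1 ASO, anti-TfR:Malat1 and OTV:Malat1 against saline, with 95% confidence intervals from edgeR and dashed lines at a change of 1.5-fold in either direction. With OTV:Malat1 only the intervals of Srsf6, Srsf12 and Srrm4 cross a dashed line.

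Each 95% interval bounds the change of a single gene in a single contrast, from a fit without a batch term. The intervals were not adjusted for the 41 genes and 4 contrasts, so they do not bound all changes at once. With OTV:Malat1, 38 of 41 intervals (95%) lay within a 1.5-fold change in either direction and all 41 within 2-fold. The counts within 1.5-fold were 39 for Malat1 ASO, 38 for anti-TfR:Malat1 and 38 for OTV:Malat1 against anti-TfR:Malat1, and the median half-width of an interval was 0.19 to 0.22 log2 units over the 4 contrasts.

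Srsf6 had the smallest unadjusted p with OTV:Malat1. It stood at 39.3, 40.9, 40.1 and 44.2 CPM in the saline animals and at 38.9, 28.6 and 30.3 in the OTV:Malat1 animals. All 3 OTV:Malat1 values lay below all 4 saline values, the first of them only just. The log2 change was -0.38 (SE 0.16, 95% interval -0.71 to -0.05), with an unadjusted edgeR p of 0.027 and an adjusted p of 0.97. The differences inside batches 2, 3 and 4 were -0.07, -0.47 and -0.53. With anti-TfR:Malat1 the animals ran from 29.2 to 43.0 CPM with a median of 34.6, overlapping the saline range, and with Malat1 ASO they stood at 34.6, 40.1, 39.5 and 50.4.

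**Figure D3:**
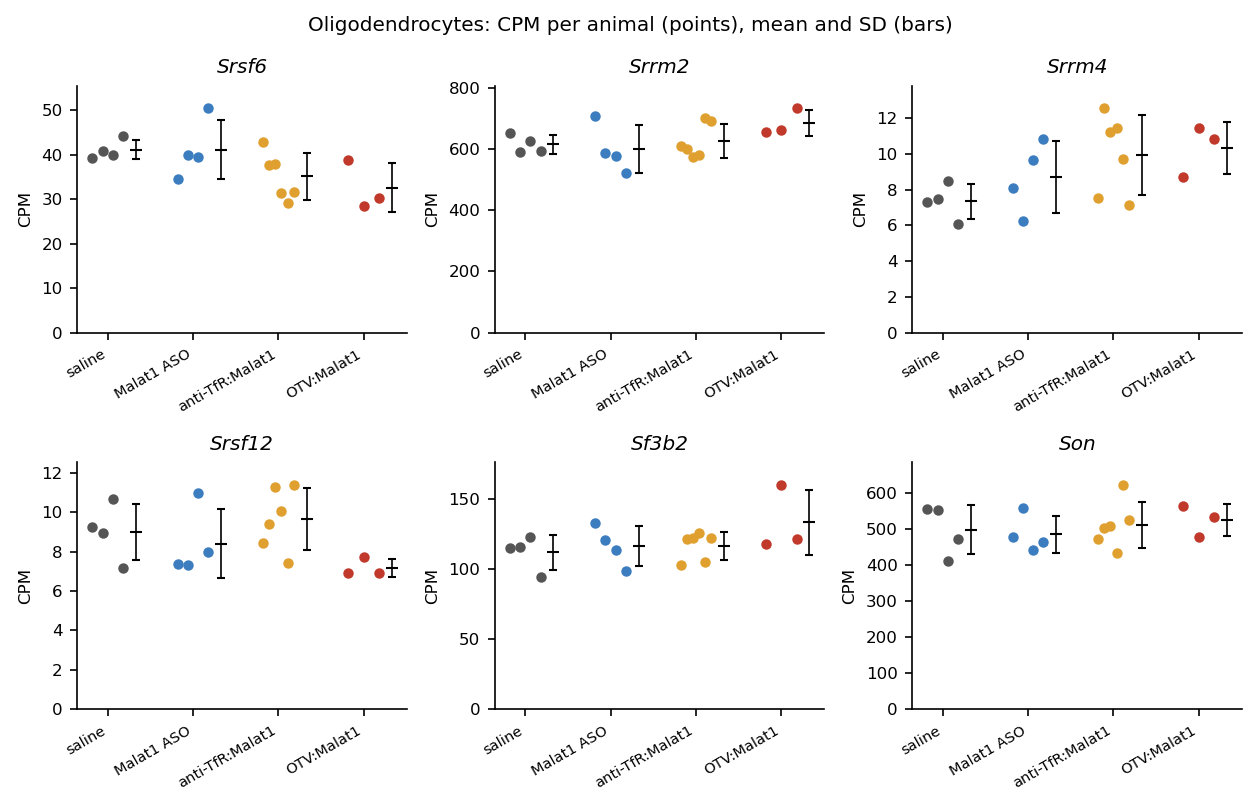
CPM in oligodendrocytes in each animal (points) for Srsf6, Srrm2, Srrm4, Srsf12, Sf3b2 and Son in the 4 treatment groups, with the group mean and SD as bars. The OTV:Malat1 animals lie below the saline animals for Srsf6 and above them for Srrm2 and Srrm4, and the groups overlap for Son.

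Among the 13 SR proteins, 4 were higher and 9 lower with OTV:Malat1 than with saline, with none called and a median of -0.06. Srsf12 stood at 9.22, 8.92, 10.7 and 7.18 CPM with saline and at 6.93, 7.70 and 6.90 with OTV:Malat1, so the groups overlapped at 1 animal each. Its log2 change was -0.37 (SE 0.19) against saline and -0.46 (SE 0.18) against anti-TfR:Malat1, with unadjusted p of 0.067 and 0.018 and adjusted edgeR p of 0.97 and 0.99. Srsf12 rested on 873 UMIs in all 17 animals. Srsf1, Srsf2 and Srsf3, at higher levels than Srsf12, were nearer to 0 with OTV:Malat1. Srsf1 stood at 75.3, 66.1, 74.0 and 55.5 CPM with saline and at 71.7, 71.9 and 68.0 with OTV:Malat1, inside the saline range, at a change of 0.01 (SE 0.10). Srsf2 stood at 146, 198, 221 and 152 CPM with saline and at 188, 224 and 135 with OTV:Malat1, a spread shared by both groups, at a change of -0.02 (SE 0.20). Srsf3 differed from saline by -0.06 with OTV:Malat1, by -0.12 with anti-TfR:Malat1 (unadjusted p = 0.096) and by -0.10 with Malat1 ASO, none of them called. Srsf10, a splicing repressor when dephosphorylated, differed by 0.12 between OTV:Malat1 and anti-TfR:Malat1 (unadjusted p = 0.21).

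Among the 11 speckle scaffolds and SR-related proteins, 4 were higher and 7 lower with OTV:Malat1, with none called. Son stood at 556, 554, 413 and 473 CPM with saline and at 565, 479 and 534 with OTV:Malat1, overlapping, at a change of 0.03 (SE 0.13). It was -0.060 without saline animal 3. Srrm2 stood at 654, 589, 627 and 592 CPM with saline and at 657, 662 and 733 with OTV:Malat1. All 3 OTV:Malat1 values lay above all 4 saline values, the lowest of them only just, and the log2 change was 0.10 (SE 0.10, adjusted p = 0.97). Without OTV:Malat1 animal 3 the change was 0.038. Srrm4 stood at 7.31, 7.50, 8.49 and 6.09 CPM with saline and at 8.70, 11.5 and 10.8 with OTV:Malat1, again without overlap. Its log2 change was 0.44 (SE 0.21, unadjusted p = 0.050, adjusted p = 0.97), and with anti-TfR:Malat1 it was 0.41 (SE 0.18, unadjusted p = 0.034, adjusted p = 1.00). The 10 neuronal markers summed to 1020 to 1488 CPM in the saline oligodendrocytes, 1211 to 1754 with anti-TfR:Malat1 and 1272 to 1617 with OTV:Malat1, and their part in the Srrm4 values was not tested. Srrm3 differed from saline by 0.33 with anti-TfR:Malat1 (unadjusted p = 0.070) and by 0.09 with OTV:Malat1, and Thrap3, a partner of Bclaf1 in mRNA processing, by -0.06 with Malat1 ASO (unadjusted p = 0.37). The Srrm3 difference with anti-TfR:Malat1 was 0.18 without saline animal 1 and 0.48 without saline animal 3.

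Of the U1 and U2 factors, 5 of 10 were higher and 5 lower with OTV:Malat1, with none called and a median of 0.00. Sf3b2, a subunit of the complex that holds the branch point, stood at 115, 116, 123 and 94.4 CPM with saline and at 118, 160 and 122 with OTV:Malat1. A single OTV:Malat1 animal lay above the saline range, and the log2 change was 0.20 (SE 0.11, unadjusted p = 0.071). Without that animal it was 0.08. Sf3a1, another U2 subunit, differed from saline by 0.30 with Malat1 ASO (SE 0.16, unadjusted p = 0.073), where the animals stood at 24.3, 32.4, 25.5 and 23.5 CPM against 19.5, 23.8, 23.5 and 19.4. Without Malat1 ASO animal 2 the difference was 0.18. U2af2, the large U2AF subunit, differed by -0.12 with anti-TfR:Malat1 (unadjusted p = 0.17), and by -0.065 without saline animal 3. None of these passed the adjusted threshold.

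Of the 5 kinases, 1 was higher and 4 were lower with OTV:Malat1. Clk4 stood at 159, 141, 123 and 155 CPM with saline and at 118, 123 and 147 with OTV:Malat1, overlapping, at a log2 change of -0.22 (SE 0.13, unadjusted p = 0.11). Clk1 stood at 278, 245, 260 and 226 CPM with saline and at 251, 217 and 250 with OTV:Malat1, at a change of -0.12 (SE 0.11). The Clk1 change was -0.023 without OTV:Malat1 animal 2 and -0.18 without OTV:Malat1 animal 1. Neither kinase passed. Of the 2 export factors 1 was higher and 1 lower, at 0.09 and -0.11 log2 units.

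In all, 3 of 41 genes had no overlap between the OTV:Malat1 and saline animals (Srsf6, Srrm2 and Srrm4), where 4.01% of 14418 genes had none. No member was without overlap in the other contrasts, where the share of all genes was 1.05% for Malat1 ASO, 0.423% for anti-TfR:Malat1 and 1.62% for OTV:Malat1 against anti-TfR:Malat1. In all 3 batches that held both saline and OTV:Malat1 animals, 5 members were higher and 7 lower with OTV:Malat1, where 17.4% of 14418 genes were higher in all and 7.77% lower. Between OTV:Malat1 and anti-TfR:Malat1, 13 members were higher and 2 lower in all 3 batches, where 17.3% and 7.63% of genes were. In all 4 batches 2 members were higher and 5 lower with anti-TfR:Malat1 than with saline (4.63% and 5.19% of genes), and 1 was higher and 5 lower with Malat1 ASO (5.29% and 4.74%). These counts of signs carry no test. In batches 2, 3 and 4, OTV:Malat1 against saline, Srrm2 was at 0.16, 0.08 and 0.31 log2 units, Srrm4 at 0.19, 0.40 and 0.74, Sf3b2 at 0.03, 0.38 and 0.37, and Srsf12 at -0.32, -0.42 and -0.05.

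No member was called in the 5 other labels tested or in all nuclei together, in any of the 4 contrasts. All 41 genes passed the filter in neurons and in all nuclei, 39 in microglia, 37 in astrocytes, 30 in vascular cells and 22 in perivascular macrophages. The share of all genes called was 0% in each of these labels, except for OTV:Malat1 against saline in astrocytes, where 1 gene (0.0117%), Malat1, was called. Srsf6 was again the member of smallest p in neurons, at 19.3, 24.1, 20.6 and 22.8 CPM with saline and 21.4, 18.9 and 14.8 with OTV:Malat1, overlapping, at a log2 change of -0.27 (SE 0.16, unadjusted p = 0.11). Neurons make up most of the nuclei, and in all nuclei Srsf6 was at -0.28 (unadjusted p = 0.080). Malat1 in neurons differed by -0.64 (adjusted p = 1.00).

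At an unadjusted p of 0.05, 0 of 41 members passed in neurons and in all nuclei in any contrast. Taking first the contrasts with saline (Malat1 ASO, anti-TfR:Malat1, OTV:Malat1) and last that of the 2 conjugates, the shares of all genes were 0.579%, 1.16%, 1.1% and 2.1% in neurons and 0.608%, 1.21%, 1.09% and 1.6% in all nuclei. Astrocytes had 0, 0, 1 and 2 members past that limit, where 2.08%, 3.09%, 3.74% and 3.92% of genes were. The 2 between OTV:Malat1 and anti-TfR:Malat1 were Thoc2 and Srsf2, named after their values were seen. Microglia had 0, 0, 1 and 0 members (2.05%, 2.83%, 3.93% and 3.51% of genes), vascular cells 1, 0, 2 and 0 (3.86%, 2.29%, 5.13% and 4.08%) and perivascular macrophages 0 in each (4.51%, 3.03%, 2.89% and 3.81%). No member count in these labels was above 2.

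In the smaller labels the errors were wider. Clk4 in astrocytes was at -0.39 (SE 0.19, unadjusted p = 0.047), Sf3b2 in microglia at 0.38 (SE 0.18, unadjusted p = 0.046), Sf3b2 in vascular cells at 0.90 (SE 0.38, unadjusted p = 0.027) and Luc7l2, a U1 factor, in perivascular macrophages at 0.35 (SE 0.24, unadjusted p = 0.15). Every adjusted edgeR p was 0.95 or above. Sf3b2 in vascular cells stood at 53.0, 88.1, 92.7 and 114 CPM with saline and at 120, 207 and 132 with OTV:Malat1, from 167 UMIs in all animals. The OTV:Malat1 animals lay above the saline animals there, as did those of Pnn and Tra2b, which were picked out after their values were seen (3 of the 30 members tested were without overlap, and 6.46% of all genes tested). Against the same saline animals, microglia had 2 of 39 members tested without overlap (Clk3 and Thoc2, also picked out afterwards, against 5.27% of genes) and perivascular macrophages 1 of 22 (Pnn, against 4.66%). Srsf6 and Ddx39b were without overlap in perivascular macrophages as well, but did not pass the filter on low counts there.

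Whether the change in oligodendrocytes differed from that in neurons of the same animals was tested with limma over 14377 genes. No member passed, where 0.0139% of genes did for OTV:Malat1 against saline, 0.00696% for OTV:Malat1 against anti-TfR:Malat1, and 0% for the other 2 contrasts. The member of smallest p was Srrm4, with a change 0.44 log2 units larger in oligodendrocytes with OTV:Malat1 (SE 0.17, unadjusted p = 0.019, adjusted p = 0.97). Srrm4 in oligodendrocytes was at 3.29% of its neuronal level, where no expression is read. The part of neuronal RNA in this difference was not tested. Srsf12 followed at -0.31 (SE 0.15, unadjusted p = 0.044), so 2 of 41 had an unadjusted p under 0.05, where 4% of all genes did.

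Other genes of the splicing machinery were counted in oligodendrocytes with OTV:Malat1 against saline. Of 65 other spliceosome factors 65 were tested, 0 were called in either direction and the median log2 change was 0.00. Bud31, a factor of the activated spliceosome, had their smallest p, at 0.56 (SE 0.15, unadjusted p = 0.0011, adjusted p = 0.97). Of 55 hnRNPs and other splicing regulators 53 were tested and 0 called, with a median of -0.04 and Hnrnpa0 leading at 0.66 (SE 0.26, unadjusted p = 0.019). Of 57 other speckle, SR kinase, exon junction and export factors 57 were tested and 0 called, with a median of -0.01 and Sap18, a subunit of a splicing accessory complex, leading at 0.30 (SE 0.14, unadjusted p = 0.047).

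Oligodendrocyte nuclei were next divided by their own Malat1. Each nucleus was thinned to 500 UMIs, and it was called low if under 32 of these were Malat1, a limit set at the saline nuclei's 10th percentile. The low share was 1.63%, 5.52%, 3.38% and 25.9% in the saline animals, 2.96%, 10.1%, 1.61% and 37.5% with Malat1 ASO, 50.3%, 43.2%, 23.1%, 35.2%, 54.3% and 58.1% with anti-TfR:Malat1, and 98.9%, 98.6% and 99.4% with OTV:Malat1. The high values of the first 2 groups came from the saline and Malat1 ASO animals of batch 4. Malat1 chose these nuclei and its own level is therefore no result.

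Among low nuclei alone, no member was called in any of the 4 contrasts over 11985 genes. The share of all genes called was 4.66% for OTV:Malat1 against saline, 2.51% for anti-TfR:Malat1 against saline, 0% for Malat1 ASO against saline and 0% for OTV:Malat1 against anti-TfR:Malat1. With OTV:Malat1 3 of 41 members had an unadjusted p under 0.05, where 16.8% of all genes did. Srsf6 was at -0.63 (SE 0.23, adjusted p = 0.14), Srrm3 at -0.90 (SE 0.35, adjusted p = 0.17) and Sf3b2 at 0.33 (SE 0.14, adjusted p = 0.22). Low nuclei of the saline animals numbered 84, 291, 134 and 1007, so the Srrm3 value rests on few saline UMIs. The low nuclei of the 2 groups differed in kind, with precursor markers at 764 to 4357 CPM with saline and 294 to 420 with OTV:Malat1, and Neu4, an enzyme of newly formed oligodendrocytes, at 36.4 to 228 and at most 19.3 CPM. Neuronal markers summed to 1532 to 2152 CPM with saline and 1271 to 1605 with OTV:Malat1, astrocyte markers to 482 to 1088 and 296 to 334, and oligodendrocyte markers to 10297 to 15419 and 16093 to 16714. Doublet calls were 2.88% to 28.6% and 2.84% to 5.79%, and the part of these values in the 3 differences was not tested. Precision was lower than for all oligodendrocytes, with 29 of 41 intervals within 1.5-fold.

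Low nuclei were also compared with the other oligodendrocyte nuclei of the same animal, with edgeR over 14394 genes. With saline, low nuclei were 1.12 log2 units higher in Srrm3 (SE 0.33, adjusted p = 0.017), the 1 member called, where 10.3% of all genes were. Srrm3 stood at 34.0, 21.9, 44.5 and 11.9 CPM in the low nuclei of the 4 saline animals and at 7.12, 11.6, 13.6 and 7.80 in their other nuclei, higher in low nuclei in 4 of 4. The low nuclei of these animals numbered only 84, 291, 134 and 1007, so each Srrm3 level in them rests on few UMIs. The 10 neuronal markers summed to 1532 to 2152 CPM in these low nuclei against 992 to 1466 in the other nuclei. Doublet calls were 2.88% to 28.6% of the low nuclei and 1.49% to 9.72% of the others. Their part in the Srrm3 difference was not tested. With Malat1 ASO, Srsf7, an SR protein that also directs mRNA export, was 0.37 log2 units lower in low nuclei (log2 difference -0.37, SE 0.11, adjusted p = 0.029), again the 1 member called, against 6.91% of genes. The low nuclei of these animals held 7.86% to 19.4% doublet calls against 1.77% to 4.45%, and precursor markers at 582 to 3724 CPM against 196 to 352, whose part was not tested. With anti-TfR:Malat1, where both kinds of nuclei were plentiful in each animal, 0 of 41 members were called, against 2.99% of all genes, and 3 had an unadjusted p under 0.05, as did 11% of all genes.

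With OTV:Malat1, 5 of 41 members were called, a smaller share than the 19% of all genes, and the other nuclei numbered only 52, 80 and 23. In so few nuclei the CPM of a member can rest on few UMIs. Srsf2 was 0.73 log2 units higher in low nuclei (SE 0.20, adjusted p = 0.0046), at 190, 226 and 136 CPM against 119, 148 and 67.6 in the other nuclei. Srsf7 was 0.63 higher (SE 0.17, adjusted p = 0.0042), at 274, 358 and 249 CPM against 231, 218 and 135. Both were higher in low nuclei in 3 of 3 animals. Luc7l2 was higher by 0.51 (adjusted p = 0.0090) and Srrm1, a coactivator that bridges SR proteins to the splice site, by 0.50 (adjusted p = 0.026). Pnn, a speckle protein tied to cell adhesion genes, went the other way, with a log2 difference of -0.48 (SE 0.15, adjusted p = 0.013) and 205, 235 and 212 CPM in low nuclei against 343, 330 and 270. The median over the 41 genes was 0.12, below the 0.25 over all genes. The part of that shift of all genes in the differences of single members was not tested.

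**Figure D4:**
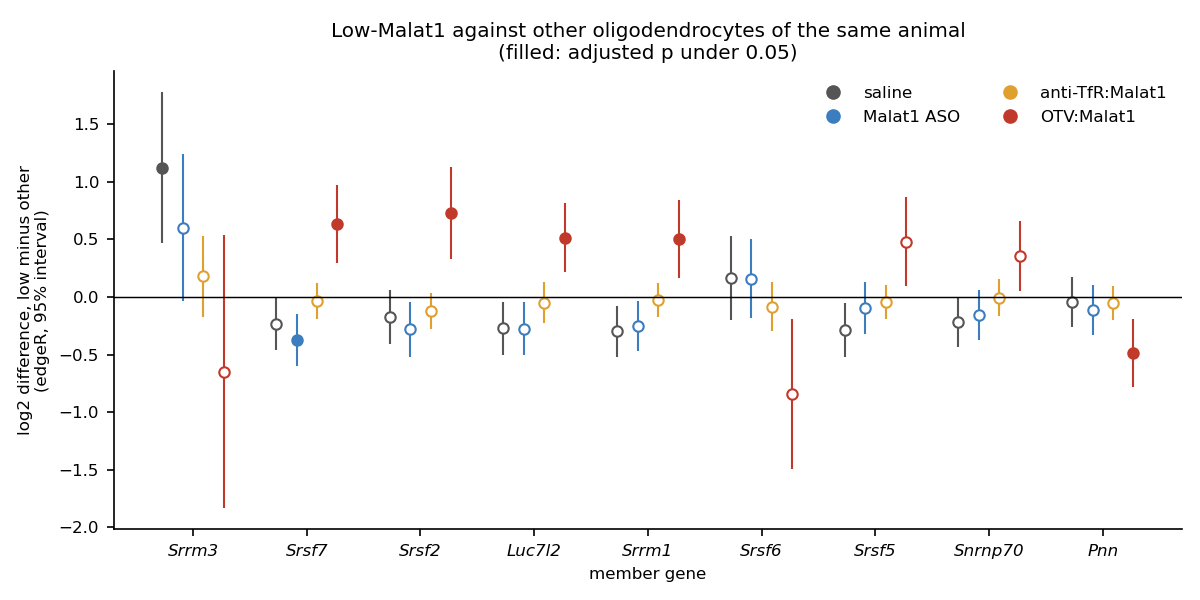
Log2 difference between oligodendrocyte nuclei low in Malat1 and the other oligodendrocyte nuclei of the same animals, for 9 members (horizontal axis) in the 4 treatment groups, with 95% intervals, where filled points mark an adjusted p under 0.05. Srrm3 is filled with saline, Srsf7 with Malat1 ASO, and Srsf2, Srsf7, Luc7l2, Srrm1 and Pnn with OTV:Malat1.

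The nuclei on either side of this split differed in kind. With OTV:Malat1 the other nuclei had a median of 2806 to 3247 UMIs with 15.4% to 43.5% called doublets, against 986 to 1213 UMIs and 2.84% to 5.79% in the low nuclei. Their summed markers of oligodendrocyte precursors were 388 to 1641 CPM and Neu4 stood at 50.7 to 217 CPM, against 19.3 CPM or less in the low nuclei, whose precursor markers summed to 294 to 420 CPM. With saline it was the low nuclei that held more of both, with precursor markers at 764 to 4357 CPM against 178 to 327, and Neu4 at 36.4 to 228 CPM against 0.900 to 13.5. The part of these values in the calls was not tested. Without the doublet calls, 0 members were called with saline (7.77% of all genes), 0 with Malat1 ASO (2.39%) and 2 with OTV:Malat1 (13%). Without OTV:Malat1 animal 2, 1 member was called with OTV:Malat1 (9.62% of all genes), and without animal 1, 3 were (14.5%).

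The deposited table also assigns each animal to 1 of 4 batches, and a test of any difference between batches was added after the data were seen. In oligodendrocytes 7 of 41 members (17.1%) passed, against 12.4% of all genes, and in neurons 12 of 41 (29.3%), against 20.2%. The 12.4% and 20.2% are counts over 14419 and 20906 genes, with edgeR and treatment in the fit. The largest fitted span among the 41 members in both labels was that of Srsf2, whose batch medians were 146, 184, 197 and 135 CPM in oligodendrocytes (span 0.54 log2 units, adjusted p = 0.00061) and 74.0, 101, 117 and 68.9 CPM in neurons (span 0.76, adjusted p = 1.6e-06). In neurons every animal of batch 3 was above every animal of the other 3 batches, and in oligodendrocytes the ranges of batches 2 and 3 overlapped. Srsf2 passed in astrocytes too, the 1 member called there (1.59% of genes), as was Rbm39 in microglia (2.47%), named after its values were seen. None was called in vascular cells (0.151%) or perivascular macrophages (1.34%).

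**Figure D5:**
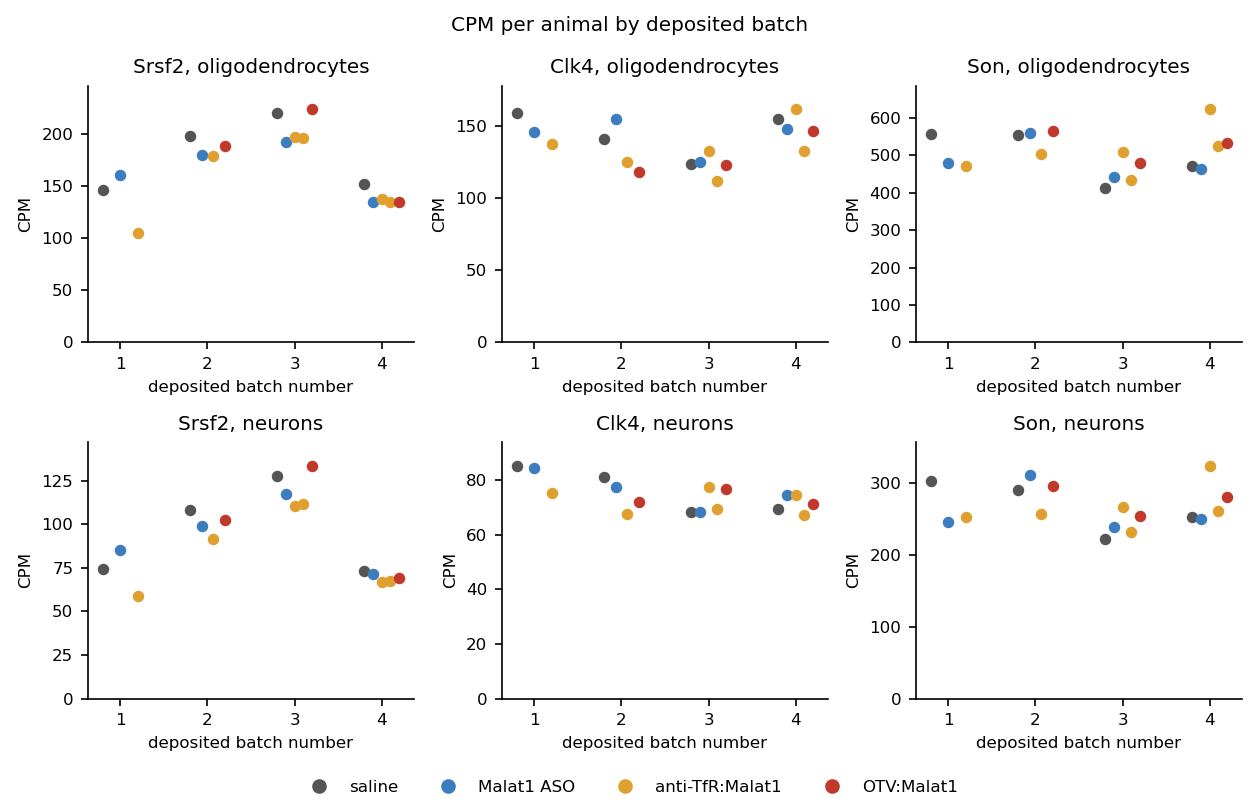
CPM of Srsf2, Clk4 and Son in each of 17 animals (points) by deposited batch, in oligodendrocytes and in neurons, with treatment shown by colour. Srsf2 is higher in batches 2 and 3 than in batch 4 in both labels, in animals of every treatment present.

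The other members called between batches in oligodendrocytes were U2af1, at a span of 0.49 log2 units with its highest median, 96.1 CPM, in batch 3 and its lowest, 67.7, in batch 4; Clk4, at 0.33 with 148 CPM in batch 4 and 123 in batch 3; Luc7l2, at 0.33 with 908 CPM in batch 4 and 724 in batch 1; Son, at 0.32 with 557 CPM in batch 2 and 442 in batch 3; Pnn, at 0.27; and Clk2, at 0.49, a kinase named after its values were seen. The median span over the 41 genes was 0.22 log2 units, smaller than the 0.32 over all genes. OTV:Malat1 animals were in batches 2, 3 and 4 only. The count of 7 fell to 3 without OTV:Malat1 animal 3, and to 4 without Malat1 ASO animal 1, saline animal 3 or anti-TfR:Malat1 animal 4. The count of all genes moved as well, from 1795 to between 755 and 1897 with an animal left out. Its lowest value came without OTV:Malat1 animal 2. The share of all genes at the member counts of 3 and 4 is not given.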

How the data were processed

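Single-nucleus RNA of 17 mice was measured with droplet libraries of sorted nuclei. The authors deposited 1 matrix of UMI counts per gene and nucleus with a table of cell labels, doublet calls and batches, and the submitters' processing notes name Cell Ranger 6.0.1, Seurat 4 and the build mm10. Whether intronic reads and strand were used is not given in the sources used here. Deposited counts were summed per animal and label and tested with edgeR 4.0.16 (quasi-likelihood, TMM scaling, filter on low counts, Benjamini-Hochberg adjustment over all genes tested). Whether the treatment change differed between oligodendrocytes and neurons of an animal was tested with limma, and DESeq2 was an alternative to edgeR. Differences in level between labels were not tested. Labels and doublets were kept as deposited, and 12 other columns of the deposited table were not used. P-values of the treatment contrasts rest on the spread between animals within groups. Those of low against other nuclei, and of the change in oligodendrocytes against that in neurons, rest on how differences within an animal varied between animals. Those of the batch test rest on the spread left after treatment and batch.

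The members and gene lists were chosen with earlier results of these data known. Named genes were Son, Srrm2, Srsf1, Srsf2, Clk1 and Clk4, every member with an adjusted p under 0.05, the 5 of smallest p in each oligodendrocyte contrast, the 1 of smallest p in each other label with OTV:Malat1, the 5 furthest apart between oligodendrocytes and neurons in each direction, the leading gene of each other list, and Malat1. The batch test and the joined label in the difference between labels were added after the data were seen.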

Additional observations from a re-analysis of the deposited data

Results flagged for a closer look

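In oligodendrocytes, 72 sets of a named member (24 of the 41) in a treatment group of 4 or 6 animals were examined for an animal far from the rest. Of these 1 was found, where chance gives about 1 in 20. The other members were not examined. Srrm1 in saline animal 3 stood at 283 CPM, with the other saline animals at 239 to 245.

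By edgeR, the difference between nuclei low in Malat1 and other oligodendrocyte nuclei was not the same with OTV:Malat1 as with saline for 7 of 41 members. This was a smaller share than the 23.3% of all genes. The median OTV:Malat1 minus saline value was 0.29 log2 units over the members and 0.35 over all genes. Precursor markers had a median of 2432 CPM in low and 257 in other nuclei with saline, and of 329 and 1182 with OTV:Malat1. Their part was not tested. The low-minus-other difference was larger with OTV:Malat1 by 0.87 log2 units for Srsf7, 0.79 for Luc7l2, 0.80 for Srrm1, 0.90 for Srsf2, 0.77 for Srsf5 and 0.57 for Snrnp70. For Srsf6 the OTV:Malat1 minus saline value was -1.01. Srsf6 stood at 38.1, 28.2 and 29.3 CPM in the low nuclei of the OTV:Malat1 animals and at 69.9, 41.2 and 101 in their 52, 80 and 23 other nuclei. The values of the other nuclei each rest on few UMIs. Without OTV:Malat1 animal 2 the count was 4, where 13.2% of all genes passed.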

How the results depend on the processing

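No alternative and no left-out animal called a member in a treatment contrast of a whole label. The same held for the test of the change in oligodendrocytes against that in neurons. The count of all genes called in oligodendrocytes with OTV:Malat1 against saline was 1 in place of 3 with only the 2 groups fitted, with a batch block, without doublets and with nuclei of at least 1000 UMIs, and it ran from 1 to 4 with an animal left out. Against anti-TfR:Malat1 it was 0 with Malat1 out of the counts and ran from 1 to 2. Srsf1 changed sign with OTV:Malat1, to -0.013 without doublets, -0.0099 at 1000 UMIs and -0.021 with joined labels, and Son to -0.0094 at 1000 UMIs. With an animal left out Son ran from -0.060 to 0.12, Srsf1 from -0.066 to 0.072 and Srsf2 from -0.15 to 0.14. The sign turned for Son without OTV:Malat1 animal 1 or saline animal 3, for Srsf1 without OTV:Malat1 animal 1 or saline animals 2 or 4, and for Srsf2 without saline animals 2 or 3 or OTV:Malat1 animal 3.

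For low against other nuclei, the members called with saline were 3 at the 5th percentile (share of all genes 11.5%), 0 at the 20th (7.96%), 4 thinned to 1000 UMIs (11%), 0 without doublets (7.77%) and 2 with DESeq2 (9.48%). With Malat1 ASO they were 2 thinned to 1000 (8.98%) and 0 without doublets (2.39%), with anti-TfR:Malat1 1 at the 20th percentile (4.6%), and with OTV:Malat1 2 without doublets (13%). The OTV:Malat1 minus saline count was 12 at the 5th percentile (25.5%). Among low nuclei alone, OTV:Malat1 against saline, 1 member was called at the 5th percentile (8.27%); at the 20th percentile 0 were, and the share of all genes was 0.0079% in place of 4.66%. Without OTV:Malat1 animal 2 that share was 0.446%. For anti-TfR:Malat1 against saline the share of 2.51% was 0.0764% without doublets and 0.00828% without saline animal 1. It was 6.05% without saline animal 4. With an animal left out the ranges were 0 to 3 (saline), 0 to 1 (Malat1 ASO), 0 to 1 (anti-TfR:Malat1), 1 to 6 (OTV:Malat1), 4 to 10 (OTV:Malat1 minus saline) and 0 to 1 (low nuclei alone, 1 without saline animal 4, with 6.69% of all genes). The lows of 1 and 4 came without OTV:Malat1 animal 2, where 9.62% and 13.2% of all genes were called, in place of 19% and 23.3%. For the other ends of the low-against-other ranges the share of all genes is not given, so those counts are not read as results on the members. Members called between batches ran from 3 (without OTV:Malat1 animal 3) to 9 (without anti-TfR:Malat1 animal 1). All genes called ran from 755 (without OTV:Malat1 animal 2) to 1897 (without anti-TfR:Malat1 animal 6), so these ends do not pair with those of the members. The cause of these shifts was not tested.

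Of 21 same-numbered pairs of animals, 12 correlated above 0.1, over a range of -0.46 to 0.50. Their median was 0.20, against -0.05 for other pairs. In the saline and Malat1 ASO groups the replicate number equalled the batch number, so number and batch overlap. Animals of 1 batch were more alike, with 20 of 27 pairs above 0.1 and a median of 0.33 against -0.11 for other pairs; with batch as a block 0 members were called in the treatment contrasts. With a replicate block 0 members and 1 gene were called with OTV:Malat1 against saline, and Srsf1 was at -0.034.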
